A study of Homo sapiens with 3 samples.

Results

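Interferon-stimulated genes and components of interferon signalling were examined in a human hepatocellular carcinoma cell line and its drug-resistant sublines. They were taken from a list of 57 gene symbols, through every probe set that the platform annotation gives to one of them alone. The brightest of a gene's probe sets, by mean signal over the 3 arrays, stands for it. Of the 57 genes, 55 were found in this way, through 104 probe sets, out of 19775 named genes, and IFI30 and STAT2 are not used here. The study set 2 resistant sublines against their parent, with 1 array each and no replicate. MHCC97L/CisR (CisR) resists cisplatin, a DNA cross-linking drug, and MHCC97L/DoxR (DoxR) resists doxorubicin, an anthracycline that poisons topoisomerase. Both derive from MHCC97Low, the parental line, described as metastatic hepatoma. All 3 were grown in DMEM with fetal bovine serum and, per the labels, received no treatment before RNA extraction. Whether each subline is a clone, and at what drug concentration it was selected, is not stated in the labels. There being 1 array per line, the spread between cultures is unknown, no test was made and every fold describes a pair of arrays.

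Interferons are secreted proteins that cells release when sensors of foreign or misplaced nucleic acid are engaged. Type I interferon binds the receptor chains IFNAR1 and IFNAR2, the kinases JAK1 and TYK2 then signal to IRF9 and its partners in a complex, ISGF3, that binds the interferon-stimulated response element (ISRE) of target promoters. The target genes encode sensors, transcription factors that amplify the signal, antiviral effectors and feedback inhibitors, and hepatocytes are responsive to both type I and type III interferon.

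The arrays gave MAS5 signal, a linear intensity, and values under 76.9 signal units, the median of all values on the 3 arrays, were raised to that floor before log2 was taken. The 3 arrays had the same trimmed mean signal (500.1), and the 3' to 5' ratio of ACTB, a measure of RNA integrity, lay between 1.49 and 1.53. Of 6 reference genes the median log2 difference from the parental array was -0.04 in the CisR and -0.03 in the DoxR array. The epithelial keratins KRT8 and KRT18 were bright on every array, with KRT18 at 33602 in CisR, 34849 in DoxR and 29626 in parental cells, whereas the apolipoprotein APOA2 and the representing probe set of APOA1 were under the floor on all 3. Of 7 hepatocyte and hepatoma markers that could be compared, 5 (ALB, AFP, TTR, SERPINA1 and TF) were at least 2-fold lower in CisR than in parental cells, with a list median of -1.63. In DoxR, ALB was 2-fold higher and TF lower than in parental cells by the representing probe sets. The 3 compared ALB probe sets ranged from 0.18 to 1.01 in log2 there. Of 8 leukocyte markers 6 were under the floor on every array, and the signal summed over the 8 was 428 in CisR, 286 in DoxR and 248 in parental cells. These leukocyte sums consist largely of values under the floor, so no order can be read from them. The 6 fibroblast markers summed to 3307 in CisR, 1513 in DoxR and 719 in parental cells. Among these lumican (LUM) had 2632 in CisR, 1167 in DoxR and 258 in parental cells, the order of the sums. The compared LUM probe sets ranged from 0.07 to 3.35 in log2 in CisR against parental cells. COL1A1 had 511 in CisR, 242 in DoxR and 309 in parental cells, lowest in DoxR, so the markers did not share the order of the sums. COL1A2, COL3A1 and PDGFRA were under the floor throughout. What part these markers have in the interferon results was not tested. In cultures measured in bulk, fewer cells that express a gene and less RNA per cell cannot be told apart.

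Part of the interferon list had no signal above the floor in these cells. Of its 55 genes, 40 had a signal above the floor on all 3 arrays, 2 on 2 arrays, 5 on 1 array and 8 on none. Those on none included several genes that are among the most strongly interferon-induced in other cells. MX1, a dynamin-like GTPase that blocks viral nucleocapsids, had a signal of 38.0 in CisR, 47.5 in DoxR and 54.8 in parental cells. RSAD2, the antiviral enzyme viperin, had 30.0 in CisR, 9.54 in DoxR and 29.9 in parental cells. BST2, the membrane tether tetherin, had 45.3 in CisR, 10.9 in DoxR and 8.93 in parental cells. MX2, DHX58, HERC5, TRIM22 and IFI44L were also under the floor on every array, and no order can be read from values there. The CisR array had 46 members above the floor (83.64%), the DoxR 41 (74.55%) and the parental 42 (76.36%). Of all named genes, 61.21% were above it in CisR, 60.04% in DoxR and 61.11% in parental cells. On each array the members thus exceeded the floor more often than genes in general.

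**Figure D1:**
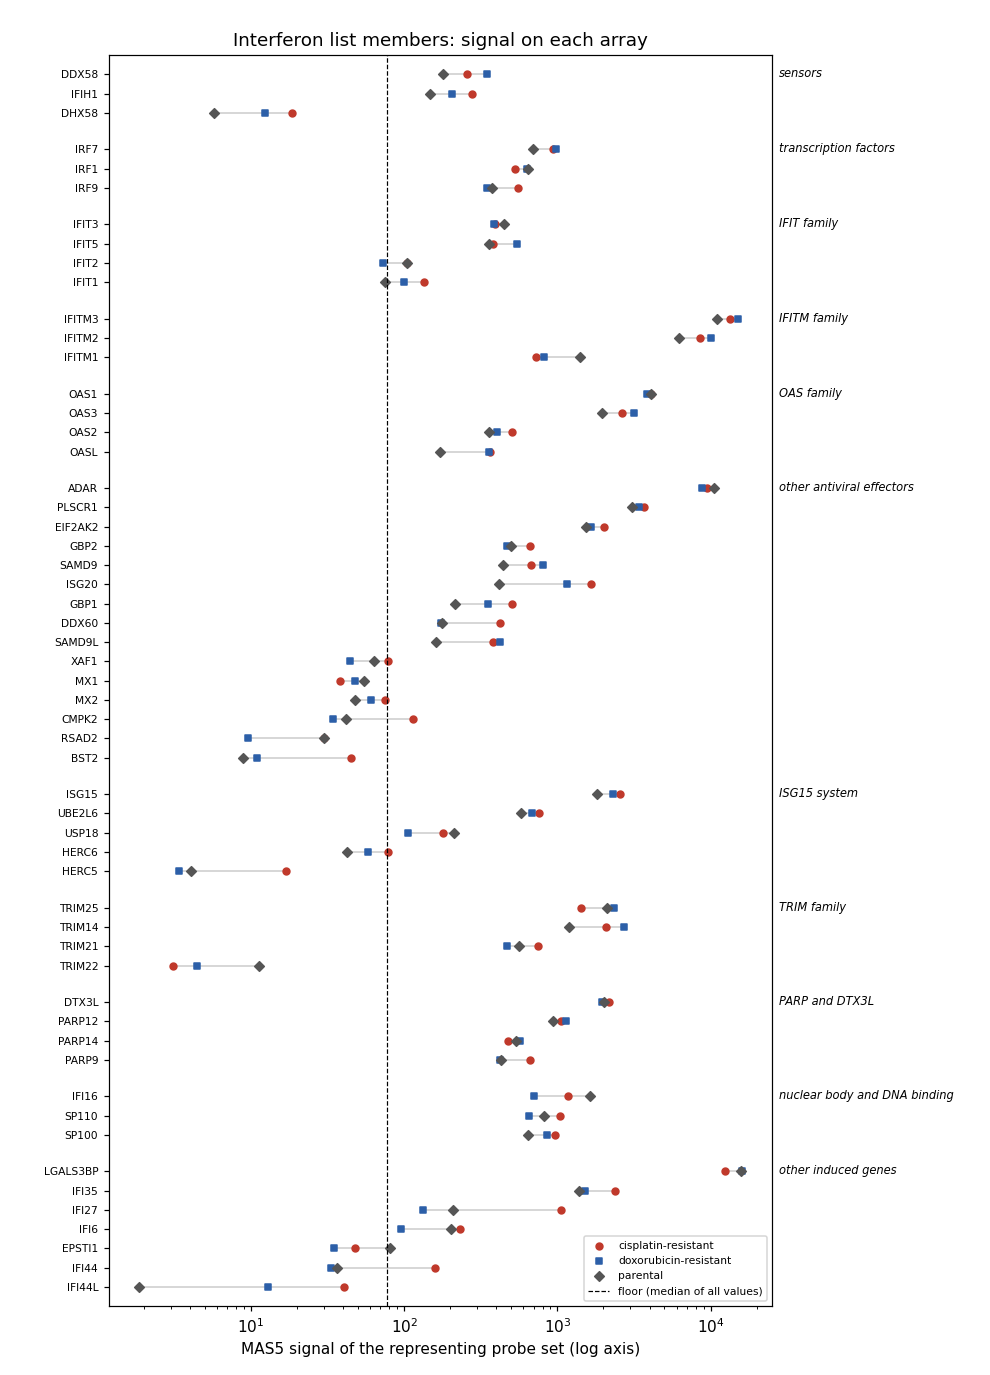
MAS5 signal (log axis) of the representing probe set of each of the 55 genes, in rows grouped by role, with a point for the cisplatin-resistant, the doxorubicin-resistant and the parental array and a dashed line at the floor of 76.9. Most rows lie right of the line with points close together, 8 lie wholly left of it, and IFI27 and ISG20 show wide gaps between points; levels of different genes come from different probes and are not to be compared.

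The CisR subline was first set against its parent, to find what differs in cells that resist cisplatin. IFI27, ISG20, DDX60, GBP1, SAMD9L, OASL and IFI44 were at least 2-fold higher in the CisR array, and no member was 2-fold lower. These were 7 of 47 compared members, or 14.9%, where 2.82% of all 12699 compared genes were higher by that much and 2.58% lower. The median log2 difference of the members was 0.41, against 0.02 for all genes, and 36 of the 47 members lay above 0 (76.6%), against 52.1% of all genes. A 1.5-fold difference was reached upward by 13 members and downward by 1, IFITM1, where 9.29% and 8.26% of all genes reached it. The other 33 members did not reach 1.5-fold. For CMPK2, HERC6, XAF1 and EPSTI1 among them the value is a bound, so the difference may be larger. Of the 47 differences 6 are bounds, where the gene exceeded the floor on only 1 of the 2 arrays and had to be higher there, and 8 members were not compared.

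IFI27, a small mitochondrial membrane protein widely used as a marker of interferon exposure, had a signal of 1061 in CisR, 133 in DoxR and 208 in parental cells. The CisR array stood far above the other two, at 5.11-fold the parental signal, and the DoxR array lay lowest. IFI27 has a single probe set here, so no second measurement on the array bears on it. ISG20, an exonuclease that degrades single-stranded RNA, had 1650.3 in CisR, 1157 in DoxR and 419 in parental cells. Both sublines were above the parent, 3.94-fold in CisR and 2.76-fold in DoxR. The other ISG20 probe set gave log2 differences of 1.34 in CisR and 1.01 in DoxR, also past 2-fold in both. IFI27 and ISG20 were the members past 3-fold in this comparison.

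DDX60, a helicase that assists the RNA sensors, had a signal of 423 in CisR, 173 in DoxR and 178 in parental cells. The CisR array alone was high, at 2.38-fold the parental signal, and the DoxR and parental arrays were almost level. GBP1, a GTPase that coats intracellular pathogens, had 503 in CisR, 351.2 in DoxR and 213 in parental cells. It was 2.36-fold higher in the CisR array by this probe set, but its 3 compared probe sets ranged from 0.15 to 1.24 on the log2 scale, and the median over them was within 2-fold. SAMD9L, a poxvirus restriction factor that also limits cell growth, had 380.2 in CisR, 419.9 in DoxR and 163 in parental cells. Both sublines were above the parent, and a dimmer SAMD9L probe set gave at least 1.04 in log2 in the CisR array.

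OASL, a catalytically inactive relative of the oligoadenylate synthetases that enhances sensing by the RNA helicase encoded by DDX58, had a signal of 363 in CisR, 359 in DoxR and 172 in parental cells. The sublines were level with each other and above the parent, 2.11-fold in CisR and 2.08-fold in DoxR, while the other OASL probe set gave log2 differences of 0.72 in CisR and 0.61 in DoxR, both within 2-fold. IFI44, a cytoplasmic protein induced by type I interferon, had 158 in CisR, 33.2 in DoxR and 36.4 in parental cells. It exceeded the floor on the CisR array alone and was at least 2.05-fold higher there. In each of the 4 genes with several compared probe sets (ISG20, GBP1, SAMD9L and OASL), all of them lay above 0. With the median of the 20 nearest compared genes on the chromosome subtracted, 6 of the 7 kept a 2-fold difference, and IFI44 had 0.94. With the floor value added to every signal as a pseudocount in place of the floor, IFI27, ISG20 and IFI44 stayed past 2-fold and the other 4 did not.

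**Figure D2:**
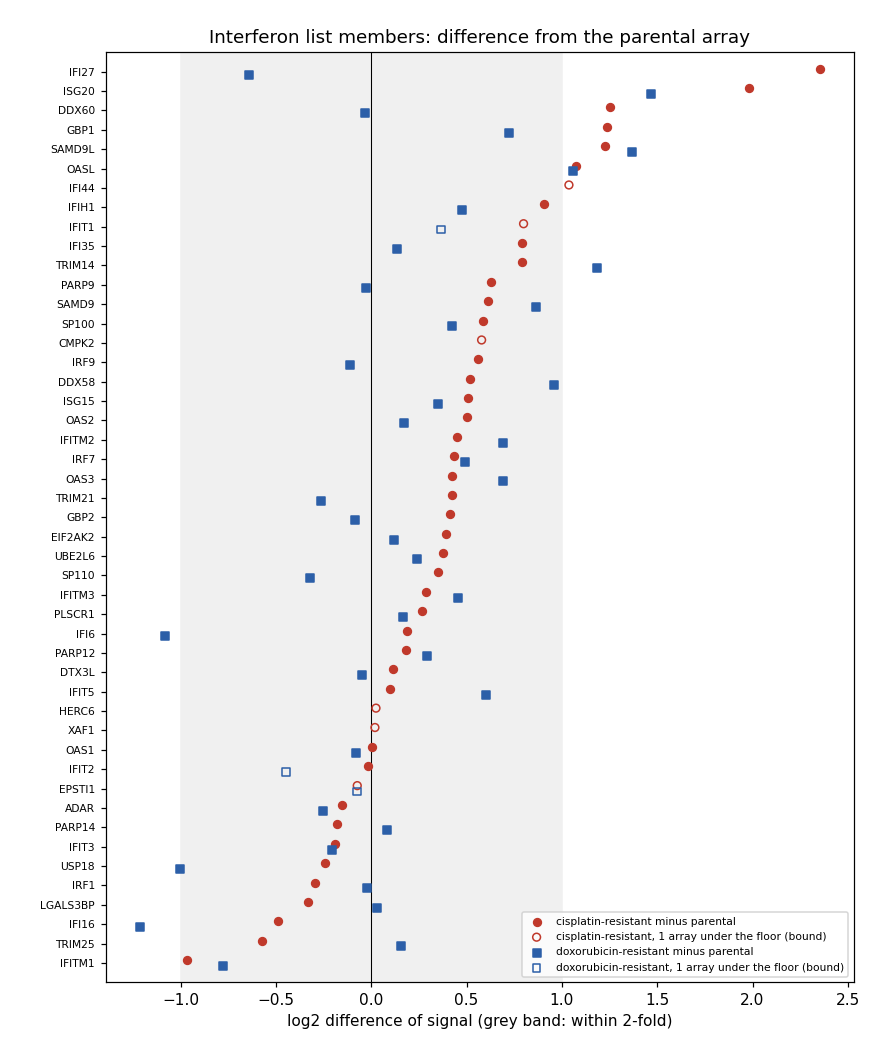
Log2 difference of signal from the parental array for every compared member, sorted by the cisplatin-resistant value, with circles for the cisplatin-resistant and squares for the doxorubicin-resistant array, open symbols where 1 array was at the floor and a grey band within 2-fold. Circles lie mostly right of 0 (36 of 47) and squares on both sides (25 of 43 right of 0); both sets share the parental array.

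Promoter sequence is shown for IFI27, ISG20, DDX60, GBP1, IFI44 and IFI6, which were 2-fold apart in a comparison and hold the letters of the response element, and for BST2, which holds them and was under the floor on every array. The windows of the RefSeq promoter table (GRCh38.p14) run from 250 bases before to 50 after each listed start, and the letters searched, on both strands, were GAAA repeated after any 2 bases, the core of the ISRE. Where a gene has several windows, as IFI27 and IFI44 do, the first that holds a match in the printed stretch is shown. The 150 bases before the start are printed 5′ to 3′ on the strand of the gene, with each match in capitals (on the opposite strand it reads TTTC, any 2 bases, TTTC). They lie at chr14:94110586-94110735 (plus strand) for IFI27, chr15:88638866-88639015 (plus strand) for ISG20, chr4:168318753-168318902 (minus strand) for DDX60, chr1:89065209-89065358 (minus strand) for GBP1, chr1:78649639-78649788 (plus strand) for IFI44, chr1:27672193-27672342 (minus strand) for IFI6 and chr19:17405631-17405780 (minus strand) for BST2.
IFI27: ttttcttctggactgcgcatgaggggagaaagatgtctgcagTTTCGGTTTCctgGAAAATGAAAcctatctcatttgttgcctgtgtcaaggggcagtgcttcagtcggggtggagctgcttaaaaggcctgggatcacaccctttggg
ISG20: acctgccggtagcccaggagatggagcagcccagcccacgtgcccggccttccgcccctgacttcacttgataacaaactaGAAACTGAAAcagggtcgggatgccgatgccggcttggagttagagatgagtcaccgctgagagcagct
DDX60: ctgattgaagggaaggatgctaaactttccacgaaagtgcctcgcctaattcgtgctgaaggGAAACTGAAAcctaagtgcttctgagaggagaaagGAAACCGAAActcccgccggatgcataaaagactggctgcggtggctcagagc
GBP1: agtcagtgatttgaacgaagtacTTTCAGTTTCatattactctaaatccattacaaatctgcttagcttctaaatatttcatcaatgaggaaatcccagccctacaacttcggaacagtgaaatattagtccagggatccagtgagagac
IFI44: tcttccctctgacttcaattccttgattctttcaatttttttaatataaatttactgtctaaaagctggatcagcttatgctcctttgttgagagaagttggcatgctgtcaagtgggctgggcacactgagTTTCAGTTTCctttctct
IFI6: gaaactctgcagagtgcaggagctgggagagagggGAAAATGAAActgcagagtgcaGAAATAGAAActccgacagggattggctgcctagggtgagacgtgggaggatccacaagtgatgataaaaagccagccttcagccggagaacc
BST2: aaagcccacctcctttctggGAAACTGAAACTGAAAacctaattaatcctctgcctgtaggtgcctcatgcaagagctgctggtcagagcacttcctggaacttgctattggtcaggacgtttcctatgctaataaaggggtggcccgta

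IFI27, DDX60, IFI6 and BST2 each hold 2 matches in the printed stretch, overlapping in BST2, and ISG20, GBP1 and IFI44 hold 1. The windows of SAMD9L and IFI16, also 2-fold apart in a comparison, hold none. The window of TRIM14 holds them and is not shown, and OASL and USP18 were not matched to a window. Of the 45 members on the array with a window in the table, 30 (66.7%) held the letters in at least 1 window, against 4.38% of the 27305 genes in the table. The letters TTC and GAA with any 3 bases between, the core of the gamma-activated site of interferon gamma signalling, occurred in 13 of the 45 (28.9%) and in 9.38% of all genes. The ISRE letters occurred at both high and low signal. All 5 members with a window that were under the floor on every array held them. In the CisR against parental comparison the median log2 difference was 0.42 over 25 members with the letters and 0.35 over 15 without. Of these, 5 with the letters and 1 without were 2-fold higher. In DoxR against parental cells 2 of 24 with them and 1 of 12 without were higher, and 1 of each was lower. In DoxR against CisR cells 4 of 24 with them and 0 of 15 without were lower. Whether the letters bear on these counts was not tested. A match is a run of letters and not evidence of binding, and no match says only that the letters are not in these windows.

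The DoxR subline was set against the same parental array. ISG20, SAMD9L, TRIM14 and OASL were higher in DoxR by 2-fold or more, and IFI16, IFI6 and USP18 lower. The higher genes were 4 of 43 compared members (9.30%), where 2.99% of 12599 compared genes were 2-fold higher, and the lower genes were 3 (6.98%), where 2.75% were. The members' median log2 difference was 0.13, against 0.00 for all genes, and 25 of 43 lay above 0 (58.1%), against 50.4%. That median became -0.014 when the median of neighbouring genes was subtracted. A 1.5-fold difference was reached upward by 10 members and downward by 5, where 9.1% and 8.62% of all genes reached it, and no member reached 3-fold. Of the 43 differences 3 are bounds, and 12 members were not compared.

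IFI16, a nuclear sensor of DNA that can restrain viral transcription, had a signal of 1169 in CisR, 707 in DoxR and 1643 in parental cells. The parental array was highest and the DoxR array lowest, 2.32-fold lower than the parent, and its 3 probe sets gave log2 differences from -1.38 to -1.22. Its neighbours on chromosome 1 had a median of -0.30, and -0.91 was left after subtracting it. IFI6, a small membrane protein that protects cells from death during infection, had 231 in CisR, 95.7 in DoxR and 203 in parental cells. The CisR and parental arrays were close and the DoxR array was 2.12-fold lower than the parent. USP18, the protease that removes ISG15 from its targets and also dampens signalling at IFNAR2, had 178 in CisR, 105 in DoxR and 211 in parental cells. It was 2.00-fold lower than the parent, at the threshold itself, and IFI6 and USP18 have 1 probe set each.

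TRIM14, an adaptor of the mitochondrial antiviral signalling complex, had a signal of 2071 in CisR, 2719.9 in DoxR and 1198 in parental cells. Both sublines were above the parent by this probe set, the DoxR by 2.27-fold, but the 4 compared probe sets ranged from 0.41 to 1.18 there and their median was within 2-fold. SAMD9L was 2.58-fold higher in the DoxR array, and its dimmer probe set gave at least 0.92 in log2, a bound that does not reach 2-fold. SAMD9, its neighbour and relative on chromosome 7, had 678 in CisR, 806 in DoxR and 443 in parental cells, and its second probe set gave a log2 difference from parental of 1.46 in DoxR, against 0.86 for the brighter one. The 20 nearest compared genes of SAMD9L had a median of 0.62 in the DoxR array, and SAMD9L was left with 0.75 and SAMD9 with 0.25 after subtraction. In DoxR the neighbours of ISG20 had a median of -0.01 and those of OASL -0.11. Both of these comparisons use the same parental array, so the 3 genes higher in both (ISG20, SAMD9L and OASL) share 1 measurement of the parent. With the pseudocount, ISG20, SAMD9L, TRIM14 and IFI16 stayed past 2-fold from parental in DoxR, and OASL, IFI6 and USP18 did not.

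**Figure D3:**
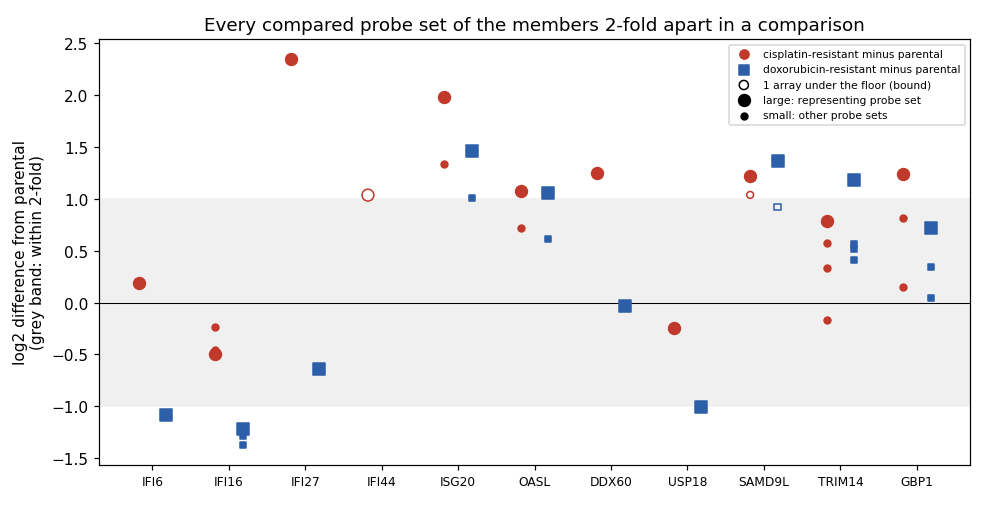
Log2 difference from the parental array for every compared probe set of the 11 genes that were 2-fold apart in some comparison, with circles for the cisplatin-resistant and squares for the doxorubicin-resistant array, large symbols for the representing probe set and open symbols for bounds at the floor. The IFI16 squares all lie below the grey 2-fold band and the ISG20 symbols all above it, whereas other probe sets of GBP1, OASL and TRIM14 and an open SAMD9L square lie inside it.

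The direct comparison of the sublines does not use the parental array. Here IFI27, DDX60, IFI6 and IFI44 were lower in DoxR than in CisR cells by 2-fold or more. No member was 2-fold higher by its representing probe set. The lower genes were 4 of 46 compared members (8.70%), where 3.32% of 12593 compared genes were 2-fold lower and 3.05% higher. A dimmer SAMD9 probe set, however, gave a log2 difference of 1.24, and a dimmer IFI16 probe set gave -1.05. IFI27 had 133 in the DoxR and 1061 in the CisR array, 7.98-fold lower, and was the only member past 3-fold. DDX60 was 2.44-fold and IFI6 2.41-fold lower, and IFI44 at least 2.05-fold lower. Each of the 4 has a single probe set above the floor, and with the pseudocount IFI27 and IFI44 stayed past 2-fold. The members' median was -0.15, against -0.01 for all genes, and 31 of 46 lay below 0 (67.4%), against 51.3%. At 1.5-fold 11 members were lower and 1 was higher, TRIM25, where 9.91% and 9.16% of all genes were. Of the 46 differences 5 are bounds, and 9 members were not compared. IFI27, DDX60 and IFI6 lay above the parent in the CisR and below it in the DoxR array, though for DDX60 the log2 difference in DoxR was only -0.03.

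**Figure D4:**
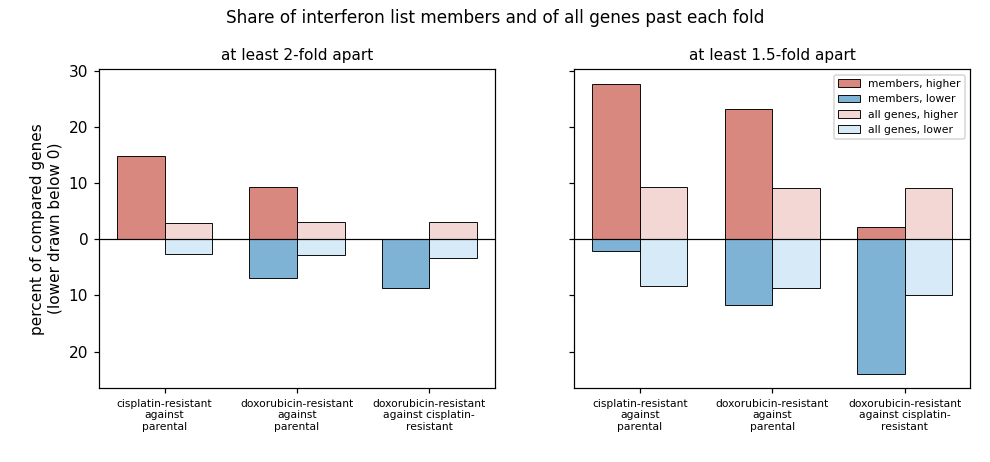
Percent of compared genes at least 2-fold (left) and 1.5-fold (right) apart in each comparison, for the interferon list members (dark bars) and all genes (pale bars), with higher drawn above 0 and lower below it. The dark bars for the cisplatin-resistant against parental comparison stand above 0 at 14.9% (2-fold) with none below, those for doxorubicin-resistant against parental extend both ways, and those for the direct comparison extend below 0.

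The other members were described by role. Among the cytoplasmic RNA sensors, DDX58, which encodes RIG-I, had 257 in CisR, 349.7 in DoxR and 179.7 in parental cells. The order was parental lowest and DoxR highest, but its 3 probe sets ranged from -0.29 to 0.52 in the CisR and from 0.33 to 0.96 in the DoxR array. IFIH1, which encodes MDA5, had 277 in CisR, 206 in DoxR and 148 in parental cells, higher in both sublines and within 2-fold. The transcription factors were within 1.5-fold of parental in both sublines. IRF9, the DNA-binding subunit of ISGF3, had log2 differences from parental of 0.56 in CisR and -0.11 in DoxR cells. IRF7, which amplifies interferon production, had a log2 difference of 0.44 in CisR and 0.49 in DoxR, with chromosome 11 neighbours at 0.16 in CisR and 0.60 in DoxR. IRF1, a factor activated by interferon gamma, had log2 differences of -0.29 in CisR and -0.02 in DoxR. A dimmer IRF1 probe set gave -0.56 in CisR and -0.50 in DoxR.

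The IFIT proteins bind viral RNA, and none of the 4 was 2-fold apart in any comparison. Per comparison and direction, 2.58% to 3.32% of all compared genes were. IFIT1, which recognises RNA without a methylated cap, had 134 in CisR, 99.03 in DoxR and 74.6 in parental cells, where it was just under the floor. IFIT3 had a log2 difference from parental of -0.19 in CisR and -0.21 in DoxR, and IFIT5 had one of 0.10 in CisR and 0.60 in DoxR. IFIT2 had 104 in CisR, 72.3 in DoxR and 105 in parental cells, lowest in DoxR, where it was under the floor. These genes lie next to each other on chromosome 10 and did not share a direction in either subline. The IFITM proteins, which hinder virus entry at membranes, split as well. IFITM1 had 721 in CisR, 823 in DoxR and 1410.2 in parental cells, lower than the parent by 1.96-fold in CisR and 1.71-fold in DoxR. IFITM2 had 8551 in CisR, 10100.1 in DoxR and 6267 in parental cells and IFITM3 13485 in CisR, 15122 in DoxR and 11043 in parental cells, above the parent in both. Their neighbours on chromosome 11 had a median of 0.21 in the CisR and 0.65 in the DoxR array, and after subtraction IFITM1 passed 2-fold, at -1.17 in CisR and -1.43 in DoxR. The IFITM genes are close in sequence and their probe sets may share signal.

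The oligoadenylate synthetases make the messenger that activates RNase L. OAS1 was level, with 4093 in CisR, 3855 in DoxR and 4083 in parental cells. OAS3 had 2627 in CisR, 3161 in DoxR and 1959 in parental cells, higher in both sublines and within 2-fold. OAS2 had log2 differences from parental of 0.50 in CisR and 0.17 in DoxR. The double-stranded RNA kinase gene EIF2AK2 had log2 differences of 0.39 in CisR and 0.12 in DoxR, though its other bright probe set, which shares probes with other transcripts, was below 0 in both. The RNA-editing enzyme ADAR had log2 differences of -0.16 in CisR and -0.25 in DoxR, and PLSCR1, a scramblase with antiviral activity, had 0.26 in CisR and 0.16 in DoxR. GBP2, a relative of GBP1, had log2 differences of 0.41 in CisR and -0.09 in DoxR. Its other probe set gave 0.29 in CisR and 0.59 in DoxR, so the sign in DoxR depends on the probe set. CMPK2, a mitochondrial nucleotide kinase, exceeded the floor on the CisR array alone, with 115 in CisR, 34.4 in DoxR and 41.4 in parental cells. XAF1, which promotes cell death, exceeded it there alone as well, by about 1 signal unit.

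ISG15 is a ubiquitin-like modifier, UBE2L6 its conjugating enzyme and HERC5 its ligase. ISG15 had 2581 in CisR, 2311 in DoxR and 1815 in parental cells, and UBE2L6 had 754 in CisR, 686 in DoxR and 580.0 in parental cells. Both were a little above the parent in both sublines and within 1.5-fold, while HERC5 was under the floor throughout and HERC6 reached 78.2 in the CisR array, at the floor. The other member of this system, USP18, was lower than parental in both. Among the TRIM ubiquitin ligases, TRIM25, which activates RIG-I, had 1421 in CisR, 2349.7 in DoxR and 2112 in parental cells, lower in the CisR array by 1.49-fold. Its neighbours on chromosome 17 had a median of -0.36 there. TRIM21, an antibody receptor in the cytosol, had log2 differences from parental of 0.42 in CisR and -0.26 in DoxR.

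PARP9 and DTX3L form a complex that ubiquitinates histones and viral proteases, and PARP14 is their neighbour on chromosome 3. PARP9 had 662 in CisR, 419.9 in DoxR and 428 in parental cells, higher in the CisR array and level between the other two. DTX3L had log2 differences from parental of 0.11 in CisR and -0.05 in DoxR. Those of PARP14 were -0.18 in CisR and 0.08 in DoxR, and those of PARP12, which blocks viral translation, 0.18 in CisR and 0.29 in DoxR. The nuclear body genes SP100 and SP110 are both on chromosome 2. SP100 had log2 differences of 0.58 in CisR and 0.43 in DoxR. SP110 had 0.35 in CisR and -0.32 in DoxR, so the pair differed in sign in DoxR. In CisR the compared probe sets of each gene had both signs. They ranged from -0.39 to 0.58 for SP100 and from -0.16 to 0.35 for SP110. IFI35, which binds the interferon-induced protein NMI, had 2389 in CisR, 1516 in DoxR and 1381 in parental cells, highest in the CisR array. LGALS3BP, a secreted glycoprotein, had log2 differences of -0.33 in CisR and 0.03 in DoxR. EPSTI1 was near or under the floor.

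The upstream parts of the pathway were read from further lists. Of 18 interferon ligand genes on the array 17 were under the floor on all 3 arrays, among them IFNB1, IFNG and IFNL1, and IFNA17 alone exceeded it, with 34.1 in CisR, 97.6 in DoxR and 129.8 in parental cells. All 6 receptor chains were above the floor, and by the representing probe set none was 2-fold apart in any comparison. Of all compared genes 2.58% to 3.32% were, per comparison and direction. IFNAR1 had a log2 difference from parental of 0.26 in CisR and 0.01 in DoxR. Its 4 probe sets, however, ranged from 0.26 to 1.14 in CisR against parental cells and from -1.25 to 0.17 in DoxR against CisR cells, so they did not give the same call. IFNAR2 had log2 differences from parental of 0.11 in CisR and -0.19 in DoxR. JAK1 had log2 differences of -0.48 in CisR and 0.05 in DoxR, with a dimmer probe set at -1.71 in the CisR array, and TYK2 had 0.69 in CisR and 0.37 in DoxR.

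Of 10 genes for sensing adaptors and their kinases, IFI16 included, none was called 2-fold higher in any comparison. Of all compared genes only 2.82% to 3.05% were, so a lack of calls among 10 genes says little about them. STING1, the adaptor of cytosolic DNA sensing, had 748 in CisR, 313 in DoxR and 582 in parental cells. It was 2.39-fold lower in the DoxR than in the CisR array and 1.86-fold lower than in the parental array, and both its probe sets were on the same side of 0 in each case. CGAS, the enzyme upstream of STING1, had 146 in CisR, 79.6 in DoxR and 18.4 in parental cells, at least 1.90-fold higher in CisR than in parental cells. It was not called by this bound, but with the parental signal under the floor the difference may exceed 2-fold. Among 7 repressors and feedback genes, PTPN2, a phosphatase that inactivates JAK1, had 620.3 in CisR, 1142 in DoxR and 1714 in parental cells. It was 2.76-fold lower in the CisR array than in the parent, with probe sets from -1.47 to -0.12, and its neighbours on chromosome 18 had a median of -0.88. The cytokine signalling suppressor SOCS3 had log2 differences from parental of -0.04 in CisR and -0.13 in DoxR.

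A further list of 43 interferon-induced genes outside the members, 39 of them on the array, gave 1 gene 2-fold higher and none lower of 30 compared in the CisR against parental comparison, with a median of 0.13, where 2.82% of all genes were higher. The higher gene was the DNA-editing cytidine deaminase APOBEC3G, which exceeded the floor on the CisR array alone, with 154, at least 2.00-fold higher. In the DoxR against parental comparison 1 of 29 was lower and none higher, with a median of -0.05, where 2.75% of all genes were lower. This was SLFN5, a Schlafen family member, with 487 in CisR, 137 in DoxR and 275 in parental cells. SLFN5 was also 3.56-fold lower in the DoxR than in the CisR array, with 6 probe sets from -2.29 to -0.10. There APOBEC3G and the helicase HELZ2 were lower as well, by at least 2.00-fold and by 2.01-fold, so 3 of 30 were lower and none higher, where 3.32% of all genes were lower. The HELZ2 probe sets had both signs. The chemokines CXCL9, CXCL10 and CXCL11, which are strongly induced by interferon gamma, were under the floor on every array.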

How the data were processed

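Total RNA of 3 cell lines was measured on human U133 Plus 2.0 arrays, 1 array per line, and groups were taken from the labels. The deposited values are a linear intensity per probe set, MAS5 signal per the submitters' processing notes; the software version is not given in the sources, and the trimmed mean was equal on all arrays. MAS5 subtracts mismatch signal, which makes low values noisy. The platform annotation named the probe sets, and symbols were matched by Entrez identifier to RefSeq (GRCh38.p14) for 41037 of 41091 probe sets with 1 symbol. Probe sets with several symbols, 2 of them naming members, were named for no gene. Values under 76.9, the pooled median, were raised to it, and a gene was compared where at least 1 of the 2 arrays exceeded it. Differences are of log2 values, called at 2-fold, and "at least" marks a floor on 1 side. No p-value was computed, and precision is limited by the number of arrays. Members, lists and alternatives were chosen with earlier results of these data known. Any member may be named; other genes come from lists, named where 2-fold apart or for their place in the pathway (IFNAR1, IFNAR2, JAK1, TYK2), and the marker genes, IFNA17 and other ligands, CGAS, SOCS3 and the chemokines were picked after their values were seen. Alternatives changed the floor, the scaling, the probe set, the neighbourhood and the fold. The steps were tested on simulated data. Python 3.11.15, pandas 2.3.3, numpy 2.4.6 and matplotlib 3.10.9 were used.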

Additional observations from a re-analysis of the deposited data

Results flagged for a closer look

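IFI27, IFI6 and DDX60 were 2-fold apart between the resistant sublines, with log2 differences from parental cells of opposite sign. For IFI6 in CisR (0.19) and DDX60 in DoxR (-0.03) the difference from parental cells was small. The log2 difference of the doxorubicin-resistant from the cisplatin-resistant array was -3.00 for IFI27, -1.27 for IFI6 and -1.29 for DDX60. Each is read from 1 probe set on 1 array per line, and the difference was not tested.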

How the results depend on the processing

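The alternatives were applied to the counts of members 2-fold apart and to their medians. For CisR against parental cells, 7 members were higher and 0 lower. The count of higher members was 2 with the floor at the 75th percentile (440 signal units), 3 with the floor value as a pseudocount, 4 without probe sets that share probes with other transcripts, 13 at 1.5-fold and 2 at 3-fold. The count of lower members was 1, IFITM1, with neighbouring genes subtracted, and 1 at 1.5-fold, and the median of 0.41 became 0.29 over all probe sets of a gene. For DoxR against parental cells, 4 were higher and 3 lower. The higher count was 2 with the floor at the 75th percentile, 2 without shared probe sets, 10 at 1.5-fold and 0 at 3-fold. The lower count was 1 with that floor, 1 with the pseudocount, 5 at 1.5-fold and 0 at 3-fold, and the median of 0.13 became -0.014, with its sign turned, once neighbouring genes were subtracted. For DoxR against CisR cells, 4 were lower and 0 higher. The lower count was 7 with the floor at the 25th percentile (19.4), 1 at the 75th, 2 with the pseudocount, 2 without shared probe sets, 11 at 1.5-fold and 1 at 3-fold, the higher count was 1 at 1.5-fold, and the median of -0.15 became -0.29 with the lower floor.

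The higher floor leaves fewer genes compared and shrinks differences of dim genes by construction. In CisR against parental cells it left 32 of the 47 members compared. Without probe sets that share probes 33 were left, with DDX60 and IFI44 not compared and OASL at 0.72 by its other probe set. The lower floor let 52 members be compared in place of 46 in DoxR against CisR cells. The cause of the other changes was not tested. Median centring, quantile normalization and the probe set with the highest mean log2 signal moved no count by more than 1.5 times and turned no median. ISG20 in both sublines, and IFI27 in CisR, stayed 2-fold above parental cells in all 9 settings that keep the 2-fold rule, and the other called genes in 5 to 7 of them. No paired analysis was possible because each line has 1 array, and for the same reason no replicate could be left out. Differences from parental cells of IFI44, IFIT1 and CMPK2 can be given only as bounds, since their parental signal was under the floor.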
